A study of Homo sapiens with 10 samples.

Results

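The genes described here are the secreted WNT ligands, their Frizzled (FZD) receptors and LRP co-receptors, the secreted antagonists of both, and the surface and nuclear proteins that adjust the response. They were chosen by symbol, as the protein-coding genes whose symbol opens with WNT, FZD, DKK or SFRP followed by a digit, together with LRP5, LRP6, AXIN2, LEF1, TCF7, WIF1, RNF43 and ZNRF3. This gave 45 of 46427 genes in the deposited table, of which 19672 are protein-coding. The 45 members comprise 19 ligands, 10 Frizzled receptors, 2 co-receptors, 9 secreted antagonists, 2 receptor ubiquitin ligases and 3 feedback or nuclear factors.

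WNT proteins are lipid-modified ligands that bind a Frizzled receptor. With LRP5 or LRP6 as co-receptor they stabilise β-catenin, which then activates target genes with the TCF and LEF factors. Other WNT ligands act through Frizzled or ROR receptors without β-catenin, on cell polarity and movement. DKK proteins bind the LRP co-receptors and SFRP proteins bind the ligands, while RNF43 and ZNRF3 remove Frizzled receptors from the cell surface. In lung the pathway is known for its part in branching and alveolar repair.

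Poly(A) RNA of 2 established human lung cancer cell lines, H460 and A549, was sequenced in 10 libraries to compare drug-resistant cells and tumor sphere (TS) cells with cells in 2-dimensional (2D) culture. Parental H460 cells in 2D culture gave 3 libraries. Drug-resistant H460 cells gave 4, namely 1 of cisplatin-resistant (CR), 2 of paclitaxel-resistant (PR) and 1 of doxorubicin-resistant (DR) cells. H460 TS cells, A549 2D cells and A549 TS cells gave 1 library each. CR cells had received cisplatin at 4 µM, PR cells paclitaxel at 5 nM and DR cells doxorubicin at 0.5 µM. Each drug was left on for 3 days, followed by 3 days in fresh medium and re-plating, so that the drug-resistant cells are those that survived 1 treatment and attached again. They are not lines grown under lasting selection. TS cells were grown on coated plates without attachment, in serum-free medium with added growth factors, for at least 3 passages, so medium and attachment changed together and cannot be told apart. The labels name no separate cultures behind the replicates, and p-values then measure only the spread between these libraries.

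Counts summed to between 59499787 and 89541774 per library. Genes with a count above 0 numbered 21036 to 21603 in the parental libraries and 22720 to 26745 in the drug-resistant ones, so low genes were seen more often in the latter. The epithelial keratins KRT8 and KRT18 were between 190.4 and 751 FPKM (fragments per kilobase of transcript, scaled by library size) in all H460 libraries, and KRT19 was at 138 to 738 FPKM there and at 3.57 and 68.3 FPKM in A549 2D and TS cells. EPCAM and CDH1, which define most epithelial cells, were at most 0.114 and 0.0266 FPKM there, and 0.923 to 1.04 and 9.29 to 11.9 FPKM in A549 cells. The mesenchymal gene VIM was at 525 to 964 FPKM in H460 cells, and the summed FPKM of the 6 mesenchymal or fibroblast markers was 762 to 970 in parental and 686 to 865 in drug-resistant cells. Of these, COL1A1 was at 0.0848 to 0.193 FPKM in parental and 0.783 to 6.51 FPKM in drug-resistant cells. The summed FPKM of 3 blood markers was at most 0.313 and that of 2 endothelial markers at most 0.167. The summed FPKM of the proliferation genes MKI67, TOP2A and CCNB1 was 181 to 277 in parental, 10.7 to 45.7 in drug-resistant and 202 in TS H460 cells. This lower sum, the higher COL1A1 and the wider detection of low genes go along with every drug-resistant result given here, and their part in them was not tested. In RNA from whole cultures, fewer cells of a kind and less RNA per cell cannot be told apart.

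Promoter sequence is shown for 4 members that carry the comparison of drug-resistant cells, since it places them on the genome and shows how unlike their upstream regions are. WNT9A and DKK1 rose in drug-resistant cells, and the paralogous receptors FZD8 and FZD5 moved in opposite directions. Each sequence is the 250 bases before the RefSeq start of the gene on GRCh38.p14, written 5′ to 3′ on the strand of the gene. They lie at chr1:227947933-227948182 (minus strand) for WNT9A, chr10:35642297-35642546 (minus strand) for FZD8, chr2:207769907-207770156 (minus strand) for FZD5 and chr10:52314031-52314280 (plus strand) for DKK1. Capitals mark the letters GGGCGG or CCGCCC, a GC box on either strand, and CTTTGAA or TTCAAAG, 1 form of the TCF/LEF motif on either strand. Other forms of that motif were not searched for, and the TCF/LEF letters below mean this form only.
WNT9A promoter: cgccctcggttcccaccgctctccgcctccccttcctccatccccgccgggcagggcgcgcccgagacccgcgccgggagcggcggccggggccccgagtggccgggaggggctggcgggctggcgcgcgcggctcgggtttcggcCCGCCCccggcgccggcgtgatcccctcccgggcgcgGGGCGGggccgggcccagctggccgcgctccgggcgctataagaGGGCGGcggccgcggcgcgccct
FZD8 promoter: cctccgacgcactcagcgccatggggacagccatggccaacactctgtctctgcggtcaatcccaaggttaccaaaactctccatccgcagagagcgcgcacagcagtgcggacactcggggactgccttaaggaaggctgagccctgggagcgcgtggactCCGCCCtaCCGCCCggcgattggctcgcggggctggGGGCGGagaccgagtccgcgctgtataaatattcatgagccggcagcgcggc
FZD5 promoter: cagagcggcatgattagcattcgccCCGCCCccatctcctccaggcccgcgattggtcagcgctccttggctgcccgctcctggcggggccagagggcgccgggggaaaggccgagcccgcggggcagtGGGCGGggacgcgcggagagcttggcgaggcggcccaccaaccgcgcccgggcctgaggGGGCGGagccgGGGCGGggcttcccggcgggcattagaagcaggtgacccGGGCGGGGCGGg
DKK1 promoter: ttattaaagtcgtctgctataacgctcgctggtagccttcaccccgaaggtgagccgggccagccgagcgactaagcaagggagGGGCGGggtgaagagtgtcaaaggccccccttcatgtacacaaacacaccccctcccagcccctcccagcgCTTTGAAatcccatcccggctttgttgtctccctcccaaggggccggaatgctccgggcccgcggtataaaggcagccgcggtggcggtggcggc

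The FZD8 window held 3 GC boxes and the FZD5 window 6, so both directions of change were found beside GC boxes. The TCF/LEF letters occurred in 1 of the 35 promoter entries of members, that of DKK1, with the first base 95 bases before the start. Over all 35116 promoter entries, 3.8% held the TCF/LEF letters and 42.6% a GC box, against 27 of 35 entries of members for the GC box. The bases G and C made up 84.4% of the WNT9A, 76.8% of the FZD5, 65.2% of the FZD8 and 62.8% of the DKK1 window, with a median of 58% over all entries. RefSeq entries were matched for 30 of the 45 members. A match is a run of letters and not a bound site.

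First, the levels were examined to learn which members these cells transcribe. H460 cells carried a small set of ligands and a broad set of receptors. Of the 45 members, 23 reached 1 FPKM in 2 or more libraries. They were 5 of 19 ligands, 9 of 10 Frizzled receptors, both co-receptors, 4 of 9 antagonists, both ubiquitin ligases and 1 of the 3 feedback or nuclear factors. None of the 45 was at a count of 0 in every library.

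The ligands of parental H460 cells were mainly WNT10B, a β-catenin-type ligand, WNT5A, a ligand known for acting without β-catenin, and WNT3. Their summed level over all 19 ligands was 8.79 to 11.5 FPKM in parental, 8.93 to 14.7 FPKM in drug-resistant and 14.8 FPKM in TS H460 cells. WNT10B had the highest FPKM of all ligands in parental replicates 1 and 2, with 45.4% and 46.7% of the sum. WNT5A had the highest FPKM in parental replicate 3, in all 4 drug-resistant libraries and in H460 TS cells, with 38.2% to 60% of the sum. The summed levels thus stayed within a narrow range in H460 cells while the leading ligand differed between most parental and all drug-resistant libraries.

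A549 cells used other ligands. WNT7B, a ligand of the β-catenin branch known from the lung epithelium, was at 47.0 FPKM in A549 2D cells and made up 90.4% of their ligand sum of 52.0 FPKM. It was at 9.68 FPKM in A549 TS cells, or 59.6% of a sum of 16.2 FPKM. In H460 cells it did not exceed 0.164 FPKM in any library.

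The Frizzled sum was 27.3 to 29.1 FPKM in parental, 38.6 to 51.1 FPKM in drug-resistant and 29.4 FPKM in TS H460 cells, so the parental and drug-resistant ranges did not overlap. FZD8 made up 55.2% to 62.3% of it in the drug-resistant libraries, against 37.3% in parental replicate 1 and 23.9% in parental replicate 3, and FZD6 had the highest FPKM in parental replicate 2 with 24.2%. The leading receptor was FZD7 in H460 TS cells with 27.8%, FZD2 in A549 2D cells with 36.2% and FZD6 in A549 TS cells with 23.5%. No test was made of these shares.

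**Figure D1:**
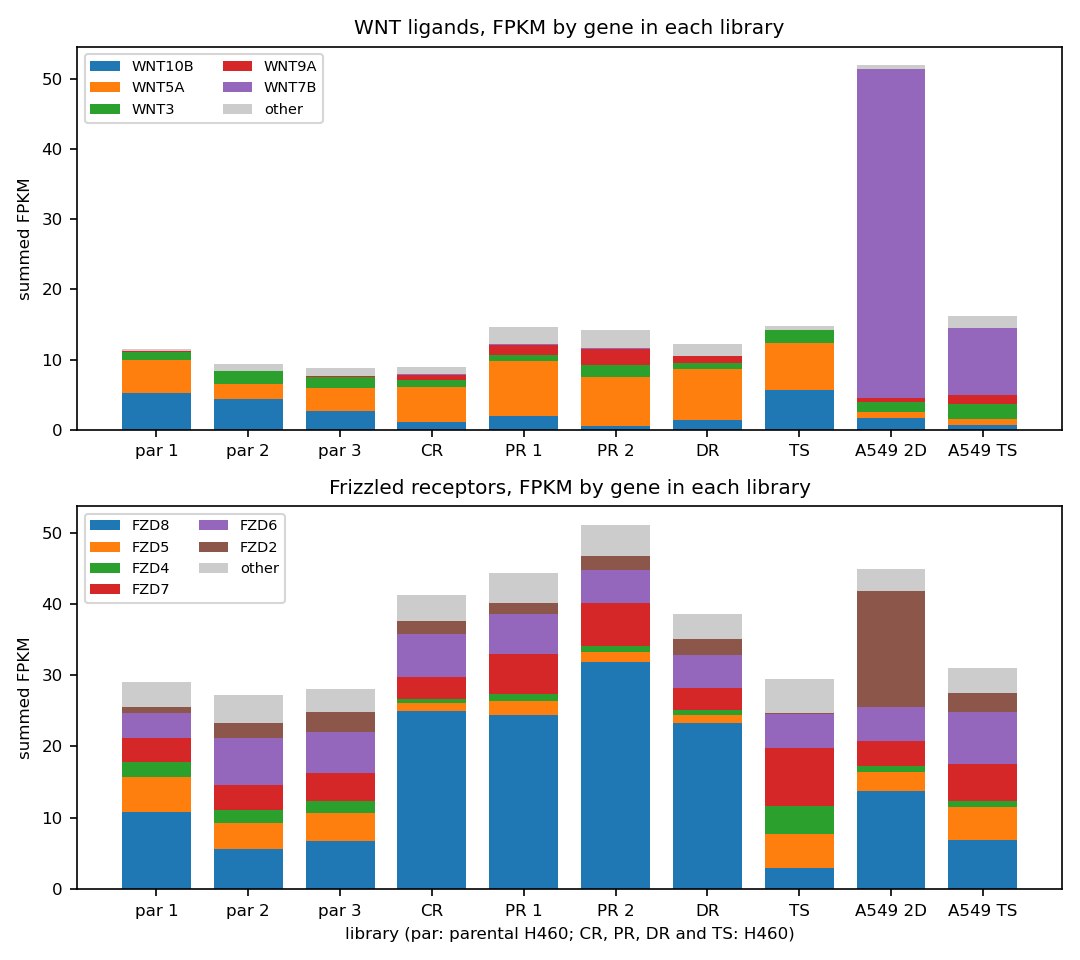
Summed FPKM (y axis, linear scale from 0) of the 19 WNT ligands (upper panel) and 10 Frizzled receptors (lower panel) in each of the 10 libraries (x axis), with each bar divided by gene. The WNT7B block stands out in A549 cells, at 47.0 and 9.68 FPKM, and the FZD8 block is at 23.3 to 31.9 FPKM in the 4 drug-resistant libraries against 5.56 to 10.8 FPKM in the 3 parental ones.

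The secreted antagonists were low in H460 cells and high in A549 cells. The sum over 9 antagonists was 1.31 to 2.54 FPKM in parental, 5.88 to 14.9 FPKM in drug-resistant and 0.427 FPKM in TS H460 cells, and 174 and 245 FPKM in A549 2D and TS cells. DKK1, which blocks the LRP co-receptors, made up 41.4% to 92.1% of this sum in every library. The co-receptors were above most ligands in every library, with LRP5 at 12.6 to 27.4 FPKM in H460 cells and 26.4 and 63.7 FPKM in A549 2D and TS cells.

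Drug-resistant H460 cells were next compared with parental H460 cells to ask which members change in cells that survive treatment. Several ligands that are nearly silent in parental cells were detected after each of the 3 drugs, among them WNT4 and WNT9A, whereas the main parental ligand WNT10B fell 3.38-fold. Among receptors FZD8 rose 3.11-fold, while FZD5 fell 3.37-fold and FZD4 fell 2.63-fold. The antagonist DKK1 rose 6.41-fold. Counts were compared with edgeR's quasi-likelihood test over 18398 genes, p-values adjusted by Benjamini-Hochberg and a threshold of 0.05, taking the 4 drug-resistant libraries as 1 group. Of the 45 members, 29 passed the filter on low counts, and 16 of those were called, 10 higher and 6 lower. Over all genes tested 33.8% were called, 18.5% higher and 15.3% lower. FPKM ranges of the groups did not overlap for 14 of the 29 members tested, 13 of them called, while 39.5% of all genes tested did not overlap. A member that passed the filter only through its level in drug-resistant cells had to differ, so these counts describe the members and are no evidence about them. WNT4, WNT6, WNT7B and LEF1, with at most 4 counts in any parental library, passed only in this way. The median log2 fold change of the 29 was 0.09, against 0.06 over all genes tested.

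**Figure D2:**
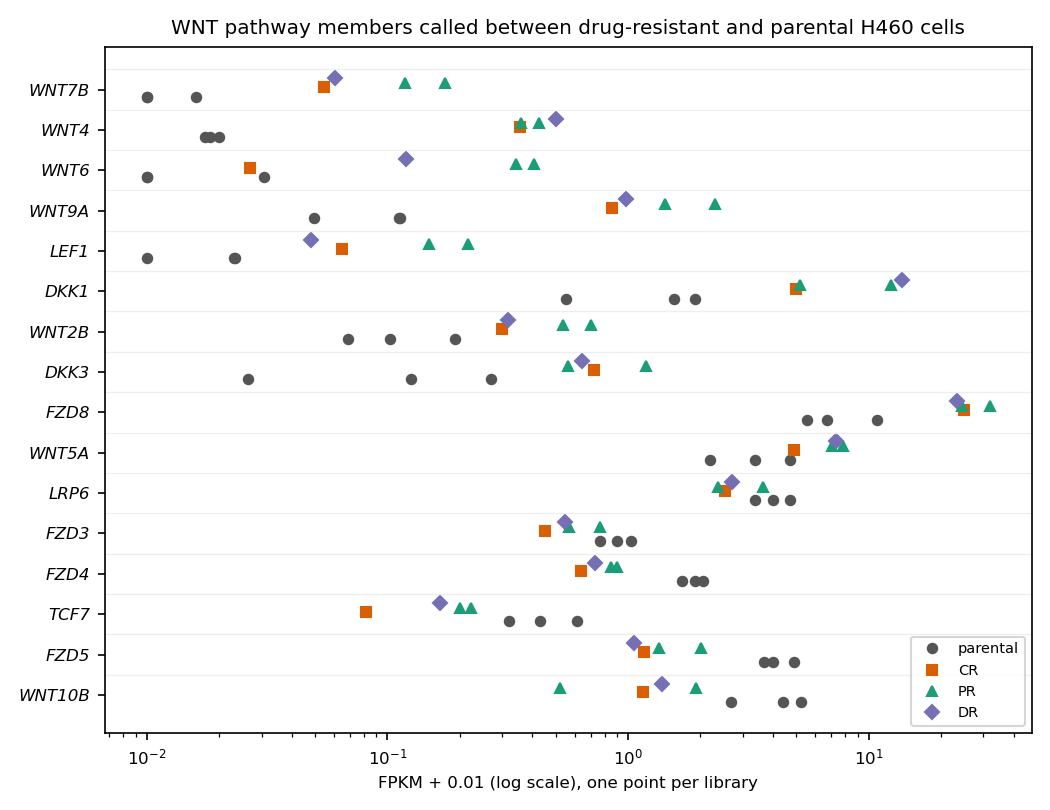
FPKM + 0.01 (x axis, log scale) of the 16 members called between drug-resistant and parental H460 cells, with 1 point per library, circles for parental, squares for CR, triangles for PR and diamonds for DR cells; libraries at 0 lie on 0.01 and can hide each other. The 2 sets of points are apart for 13 genes and overlap for WNT6, FZD3 and LRP6.

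Of the ligands, 6 rose and 1 fell among 11 tested. WNT4 (NCBI Gene 54361; chr1:22117305-22143969, minus strand, GRCh38), a ligand known from kidney and gonad development, was at 0.00753 to 0.01 FPKM in the 3 parental libraries, with a count of 4 in each. It was at 0.344 FPKM in CR, 0.417 and 0.348 in PR and 0.492 in DR cells. All 4 drug-resistant libraries were thus at a similar level and far above the parental ones, although below 1 FPKM. The log2 fold change was 4.71 ± 0.45 (SE; edgeR adjusted p = 0.000193, 3 against 4 libraries). With only 12 parental counts in all against 491, the ratio of depth-scaled counts was 28.8 (95% interval 16.3 to 56.1, counting error only). WNT4 overlaps AL445253.1 on the opposite strand.

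WNT9A (NCBI Gene 7483; chr1:227918656-227947898, minus strand), a β-catenin-type ligand of joint development whose promoter is printed above, was at 0.0396, 0.102 and 0.103 FPKM in the parental libraries. It was at 0.851 FPKM in CR, 1.41 and 2.29 in PR and 0.973 in DR cells. The groups did not overlap, and both PR libraries were above the CR and DR libraries. The log2 fold change was 3.72 ± 0.45 (edgeR adjusted p = 0.000391), or 13.2-fold.

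WNT2B (NCBI Gene 7482; chr1:112466541-112530165, plus strand), a ligand of early lung specification, was at 0.0585, 0.0922 and 0.181 FPKM in the parental libraries. In CR cells it was at 0.290 FPKM, in PR cells at 0.526 and 0.693 and in DR cells at 0.307. It was lowest in parental replicate 1 and highest in PR replicate 2, without overlap of the groups, and rose 5.33-fold (log2 2.41 ± 0.48, edgeR adjusted p = 0.00421). The gene overlaps ST7L on the opposite strand.

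WNT5A (NCBI Gene 7474; chr3:55465715-55490539, minus strand) was at 4.71, 2.19 and 3.35 FPKM in the parental libraries. It was at 4.90 FPKM in CR, 7.82 and 7.02 in PR and 7.33 in DR cells, so the CR library lay just above parental replicate 1. The rise of 1.83-fold (log2 0.87 ± 0.27, edgeR adjusted p = 0.0320) was the smallest among the called ligands. It was not called in 6 of 15 alternatives, including those without parental replicate 2 or 3, without either PR library and without the DR library (highest adjusted p = 0.0936).

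WNT7B and WNT6 rose from almost nothing. WNT7B (NCBI Gene 7477; chr22:45920362-45977129, minus strand) had counts of 2, 0 and 0 in the parental libraries, 16 in CR, 36 and 44 in PR and 20 in DR cells. The ratio of depth-scaled counts was 40.8 (95% interval 11.0 to 341), with an edgeR adjusted p of 0.00361, and its highest level in H460 cells was 0.164 FPKM. WNT6 (NCBI Gene 7475; chr2:218859821-218874233, plus strand), a ligand of epithelial development, had counts of 0, 0 and 4 in parental cells, 3 in CR, 58 and 39 in PR and 19 in DR cells. In FPKM the CR library, at 0.0169, was below parental replicate 3, at 0.0206, so WNT6 overlapped between the groups. Its ratio was 20.9 (95% interval 7.96 to 78.0, edgeR adjusted p = 0.0239). It was called in 9 of the 11 alternatives in which it was tested, and not without parental replicate 1 or parental replicate 2 (adjusted p = 0.0889 and 0.0948). Without the CR library or parental replicate 3 it was called, and without the DR library or either PR library it was too low to be tested, so the call was held in 2 of the 7 fits that leave out 1 library.

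WNT10B (NCBI Gene 7480; chr12:48965340-48971763, minus strand), the leading parental ligand, was at 5.22, 4.38 and 2.66 FPKM in the parental libraries. It was at 1.14 FPKM in CR, 1.90 and 0.512 in PR and 1.37 in DR cells, with every drug-resistant library below every parental one. The fall was 3.38-fold (log2 -1.76 ± 0.32, edgeR adjusted p = 0.00276). WNT3, also of the β-catenin branch, was at 1.21, 1.77 and 1.51 FPKM in parental and 0.977, 0.929, 1.66 and 0.837 FPKM in CR, PR replicate 1, PR replicate 2 and DR cells, and did not pass the threshold.

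Of the 9 Frizzled receptors tested, 1 rose and 3 fell. FZD8 (NCBI Gene 8325; chr10:35638249-35642278, minus strand), a receptor of the β-catenin branch, was at 10.8, 5.56 and 6.71 FPKM in the parental libraries. It was at 24.9 FPKM in CR, 24.4 and 31.9 in PR and 23.3 in DR cells. The 4 drug-resistant libraries were close together, at 26.1 ± 3.88 FPKM (SD, n = 4) against 7.70 ± 2.78 (SD, n = 3), and did not overlap with the parental ones. The rise was 3.11-fold (log2 1.64 ± 0.25, edgeR adjusted p = 0.00112).

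FZD5 (NCBI Gene 7855; chr2:207762586-207769563, minus strand), the closest paralog of FZD8, was at 4.89, 3.68 and 4.0 FPKM in parental cells. It was at 1.15 FPKM in CR, 1.99 and 1.33 in PR and 1.05 in DR cells, again without overlap but in the other direction from FZD8. The fall was 3.37-fold (log2 -1.75 ± 0.22, edgeR adjusted p = 0.000452). Both promoter windows printed above hold GC boxes, and neither holds the TCF/LEF letters.

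FZD4 (NCBI Gene 8322; chr11:86945679-86955391, minus strand), the receptor of retinal vessel growth, was at 2.03, 1.88 and 1.66 FPKM in parental and at 0.628, 0.887, 0.838 and 0.722 FPKM in CR, PR replicate 1, PR replicate 2 and DR cells. The groups were clearly apart, with a fall of 2.63-fold (log2 -1.40 ± 0.18, edgeR adjusted p = 0.000490). FZD4 overlaps PRSS23 on the opposite strand. FZD3 (NCBI Gene 7976; chr8:28494205-28574268, plus strand), a receptor of axon guidance and planar polarity, was at 1.02, 0.889 and 0.752 FPKM in parental and 0.443, 0.754, 0.561 and 0.539 FPKM in CR, PR replicate 1, PR replicate 2 and DR cells. PR replicate 1 matched parental replicate 3, so the groups overlapped, and the fall was 1.74-fold (log2 -0.80 ± 0.21, edgeR adjusted p = 0.0154).

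The other 5 receptors tested did not pass the threshold. FZD1 was at 1.28 to 1.36 FPKM in parental and 1.55 to 1.94 FPKM in drug-resistant cells, without overlap. FZD2 was at 0.801, 2.17 and 2.76 FPKM in parental and 1.57 to 2.22 FPKM in drug-resistant cells, FZD6 at 3.50 to 6.6 and 4.51 to 6.08 FPKM, and FZD9 at 1.13 to 1.71 and 1.40 to 1.84 FPKM. FZD7, a receptor often linked with stem-like cells, was at 3.44 to 3.91 FPKM in parental, 5.65 and 6.14 FPKM in PR, and 3.05 and 3.15 FPKM in CR and DR cells. The drugs thus did not share a direction for FZD7.

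The co-receptor LRP6 (NCBI Gene 4040; chr12:12116025-12267012, minus strand) was at 3.99, 3.37 and 4.70 FPKM in parental and 2.53, 3.61, 2.36 and 2.70 FPKM in CR, PR replicate 1, PR replicate 2 and DR cells. PR replicate 1 lay within the parental range. The fall of 1.62-fold (log2 -0.70 ± 0.22, edgeR adjusted p = 0.0301) was not called in 9 of 15 alternatives, with adjusted p-values up to 0.0875. Among them were the fits without parental replicate 1 or 3, without the CR or DR library, without PR replicate 2 and with upper-quartile scaling. LRP5 was at 13.7, 13.7 and 27.4 FPKM in parental and 12.6 to 17.0 FPKM in drug-resistant cells, with parental replicate 3 far above the other parental libraries, and did not pass the threshold.

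Both antagonists that changed rose. DKK1 (NCBI Gene 22943; chr10:52314296-52318042, plus strand) was at 1.54, 1.88 and 0.542 FPKM in parental cells. It was at 4.98 FPKM in CR, 5.17 and 12.4 in PR and 13.7 in DR cells. The 2 PR libraries lay far apart, 1 near CR and 1 near DR cells, but all 4 were above all parental libraries, with a rise of 6.41-fold (log2 2.68 ± 0.49, edgeR adjusted p = 0.00269). DKK1 overlaps the antisense gene PRKG1-AS1.

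DKK3 (NCBI Gene 27122; chr11:11963106-12009769, minus strand), a divergent DKK protein, was at 0.0163, 0.115 and 0.260 FPKM in parental and 0.709, 0.554, 1.17 and 0.635 FPKM in CR, PR replicate 1, PR replicate 2 and DR cells. The parental libraries differed widely among themselves, yet the groups did not overlap, and the rise was 5.26-fold (log2 2.40 ± 0.67, edgeR adjusted p = 0.0205). It was not called without parental replicate 2, without PR replicate 2 or with the form of the library name as a covariate (highest adjusted p = 0.0809). SFRP4, a ligand-binding antagonist, was at 0.201, 0.533 and 0.509 FPKM in parental and 0.176 to 0.424 FPKM in drug-resistant cells and did not pass the threshold. SFRP1 was at 0 in all 3 parental libraries and had at most 10 counts in a drug-resistant library, too few to pass the filter.

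Of the nuclear factors, LEF1 rose and TCF7 fell. LEF1 (NCBI Gene 51176; chr4:108047545-108168956, minus strand) had counts of 4, 4 and 0 in parental and 19, 60, 34 and 14 in CR, PR replicate 1, PR replicate 2 and DR cells, and it overlaps LEF1-AS1 on the opposite strand. Its ratio of depth-scaled counts was 11.2 (95% interval 5.50 to 26.4, edgeR adjusted p = 0.0157), at 0.206 FPKM or less. TCF7 (NCBI Gene 6932; chr5:134114711-134151865, plus strand) was at 0.310, 0.423 and 0.601 FPKM in parental and 0.0718, 0.190, 0.214 and 0.156 FPKM in CR, PR replicate 1, PR replicate 2 and DR cells. It was lowest in CR cells, did not overlap between groups and fell 2.71-fold (log2 -1.44 ± 0.39, edgeR adjusted p = 0.0178). LEF1 was not called without parental replicate 2 (adjusted p = 0.0514), nor TCF7 without parental replicate 3 (adjusted p = 0.0565), and TCF7 overlaps SKP1 on the opposite strand. ZNRF3 was at 1.32 to 1.98 FPKM in parental and 1.05 to 1.56 FPKM in drug-resistant cells and did not pass the threshold, and RNF43 had at most 18 counts in any H460 library.

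The forms of the library names in the labels differ within both groups. Parental replicate 2, CR, DR and PR replicate 2 have a hyphen that the other names lack, and what the form stands for is not given. With the form as a covariate 14 of the 16 were called, and DKK3 and LRP6 were not. Called in every alternative in which they were tested were 10 members, namely WNT2B, WNT4, WNT7B, WNT9A, WNT10B, FZD3, FZD4, FZD5, FZD8 and DKK1. Of these, WNT4 and WNT7B passed the filter on low counts only through drug-resistant cells. In alternatives with that filter they had to differ, so their repeated calls there are no further evidence.

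The PR cells, the only drug-resistant cells with 2 libraries, were then compared alone with the same 3 parental libraries, so their values are not independent of those above. Of 29 members tested among 19430 genes, 12 were called, 9 higher and 3 lower, while 28.1% of all genes tested were called, 17.5% higher and 10.6% lower. FPKM ranges did not overlap for 18 of the 29 members tested, the 12 called among them, while 58.9% of all genes tested did not overlap, so the members' share was near that of all genes. The 12 were the 16 above without WNT5A, FZD3, LRP6 and TCF7. With at most 4 counts in any parental library, WNT4, WNT6, WNT7B and LEF1 passed the filter on low counts only through PR cells. They had to differ, so their calls, here and with libraries left out, are no evidence about them.

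In PR cells the log2 fold change was 4.55 ± 0.51 for WNT4 (edgeR adjusted p = 0.00142) and 4.05 ± 0.47 for WNT9A (adjusted p = 0.00148). It was 1.63 ± 0.32 for FZD8, -1.60 ± 0.29 for FZD5 and -1.34 ± 0.26 for FZD4, with edgeR adjusted p-values of 0.00667, 0.00554 and 0.00636. WNT10B changed by -1.81 ± 0.46 on this scale (edgeR adjusted p = 0.0180), WNT2B by 2.71 ± 0.53 (0.00671), DKK1 by 2.50 ± 0.50 (0.00734) and DKK3 by 2.45 ± 0.80 (0.0481). WNT7B, WNT6 and LEF1 were called with edgeR adjusted p-values of 0.00430, 0.00659 and 0.00839, from the low counts given above. Without PR replicate 2, which leaves 1 PR library whose spread is taken from the parental ones, only WNT4 and WNT9A were called. The other 10 kept their direction there, with a log2 fold change of 1.46 for FZD8, -1.32 for FZD5 and -1.26 for FZD4 (edgeR adjusted p-values of 0.0800, 0.0913 and 0.0970). Without PR replicate 1, DKK3, FZD4, LEF1 and WNT6 lost their call, and without parental replicate 2, DKK3 and WNT10B did.

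**Figure D3:**
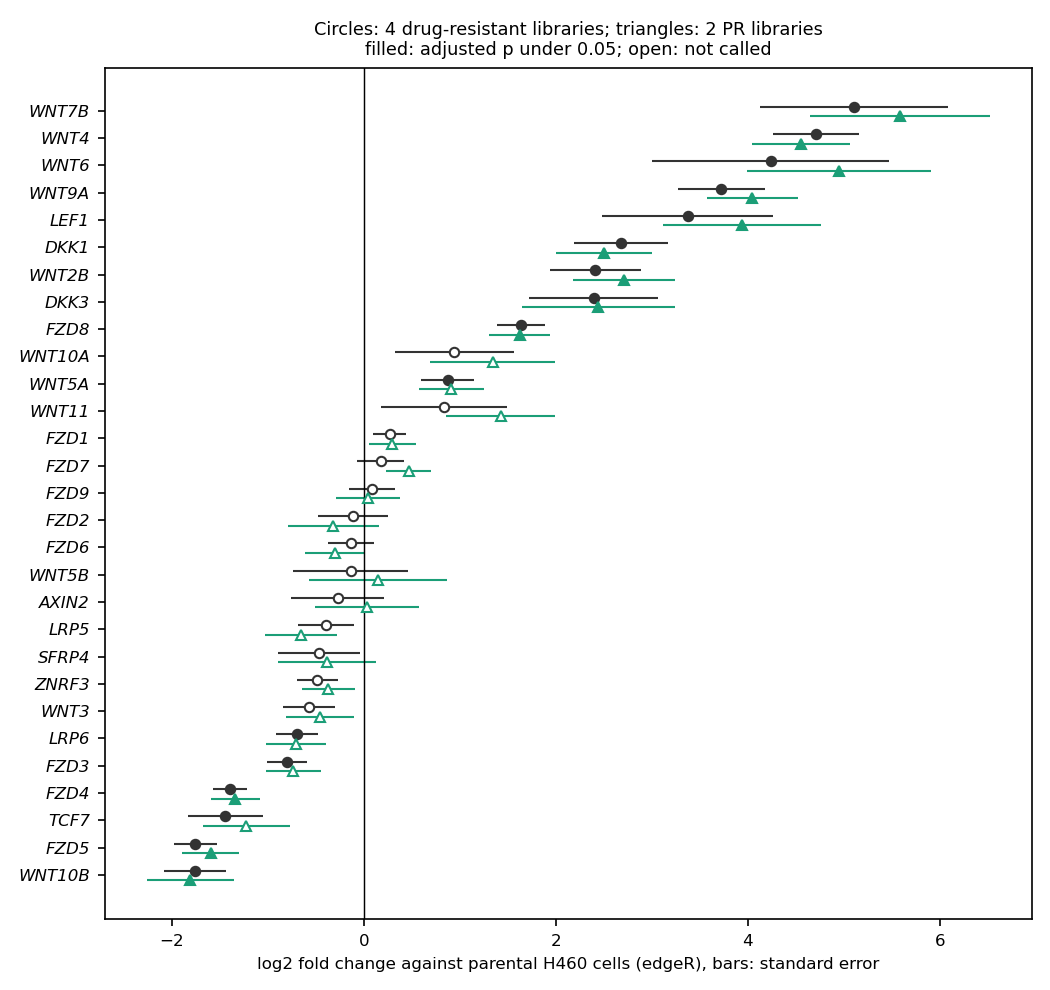
Log2 fold change against parental H460 cells (x axis; points are edgeR estimates and bars 1 standard error) for the 29 members tested, with circles for the 4 drug-resistant libraries and triangles for the 2 PR libraries; filled points have an adjusted p under 0.05. Filled points reach from -1.81 for WNT10B to 5.59 for WNT7B, and the 13 members open in both fits lie between -0.66 and 1.43.

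With 1 library each, CR and DR cells have no replicate check. On the log2(FPKM + 1) scale, which understates changes of low genes, 4 members were more than 2-fold apart from the parental mean in CR cells, namely DKK1 and FZD8 higher and FZD5 and WNT10B lower. The same holds for 6.37% of all genes expressed in either. In DR cells they were again DKK1, FZD8, FZD5 and WNT10B in the same directions (5.02% of all genes), and in the mean of PR cells DKK1, FZD8 and WNT9A higher and WNT10B lower (5.99%). These comparisons share the parental libraries. The FPKM of DKK1 was 3.77 times the parental mean in CR, 6.64 times in PR and 10.4 times in DR cells, and that of FZD8 was 3.23, 3.66 and 3.03 times.

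TS cells were compared with 2D cells of both lines to ask which members change in suspension culture. In this fit over 18372 genes, with the cell line as a covariate, none of 30 members tested was called by edgeR, against 0.191% of all genes tested. At an unadjusted p under 0.05 there were 8 members, against 7.42% of all genes. DESeq2 called 4, namely AXIN2, FZD7 and RNF43 higher and FZD2 lower, against 2.92% of all genes, and limma called 0. The levels of these 4 in both lines are therefore given as values.

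FZD2, a receptor mostly linked with WNT5A, was at 0.257 FPKM in H460 TS cells, below the 0.801, 2.17 and 2.76 FPKM of parental cells, and at 2.71 FPKM in A549 TS against 16.3 FPKM in A549 2D cells. In both lines the TS library was thus below every 2D library of that line. FZD7 was at 8.16 FPKM in H460 TS cells, above the parental 3.44 to 3.91 FPKM, and at 5.16 FPKM in A549 TS against 3.54 FPKM in A549 2D cells.

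RNF43, a ubiquitin ligase and itself a WNT target, was at 1.49 FPKM in A549 2D and 14.3 FPKM in A549 TS cells, with counts of 503 and 5780. In H460 cells it had 0 counts in all parental libraries and 7 in the TS library. RNF43 counts thus came almost wholly from A549 cells. Its gene overlaps TSPOAP1-AS1 on the opposite strand and SUPT4H1 on its own strand.

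More than 2-fold apart in H460 TS cells on the log2(FPKM + 1) scale were 2 members, FZD2 and FZD8, both lower (1.94% of all genes). FZD8 was at 2.96 FPKM there, below all parental libraries and in the other direction from the drug-resistant cells. It was at 6.85 FPKM in A549 TS against 13.8 FPKM in A549 2D cells. In both lines FZD8, like FZD2, was thus below every 2D library of the same line. In A549 TS cells 5 were (5.02% of all genes). RNF43, LRP5 and AXIN2 were higher and FZD2 and WNT7B lower. LRP5 was at 63.7 against 26.4 FPKM. AXIN2, a feedback inhibitor and widely used reporter of β-catenin signalling, was at 2.53 FPKM in A549 TS against 0.620 FPKM in A549 2D cells. In H460 TS cells it was at 0.343 FPKM, with 110 counts, against 0.0572, 0.170 and 0.0953 FPKM in the parental libraries. AXIN2, singled out after its values were seen, was thus above every 2D library of the same line in both lines. WNT3, WNT4, LRP6, FZD4, FZD7 and RNF43 were placed in the same way, and SFRP4 lay below, as FZD2 and FZD8 did. How many of all genes are placed like this was not counted, and edgeR called none of these members.

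**Figure D4:**
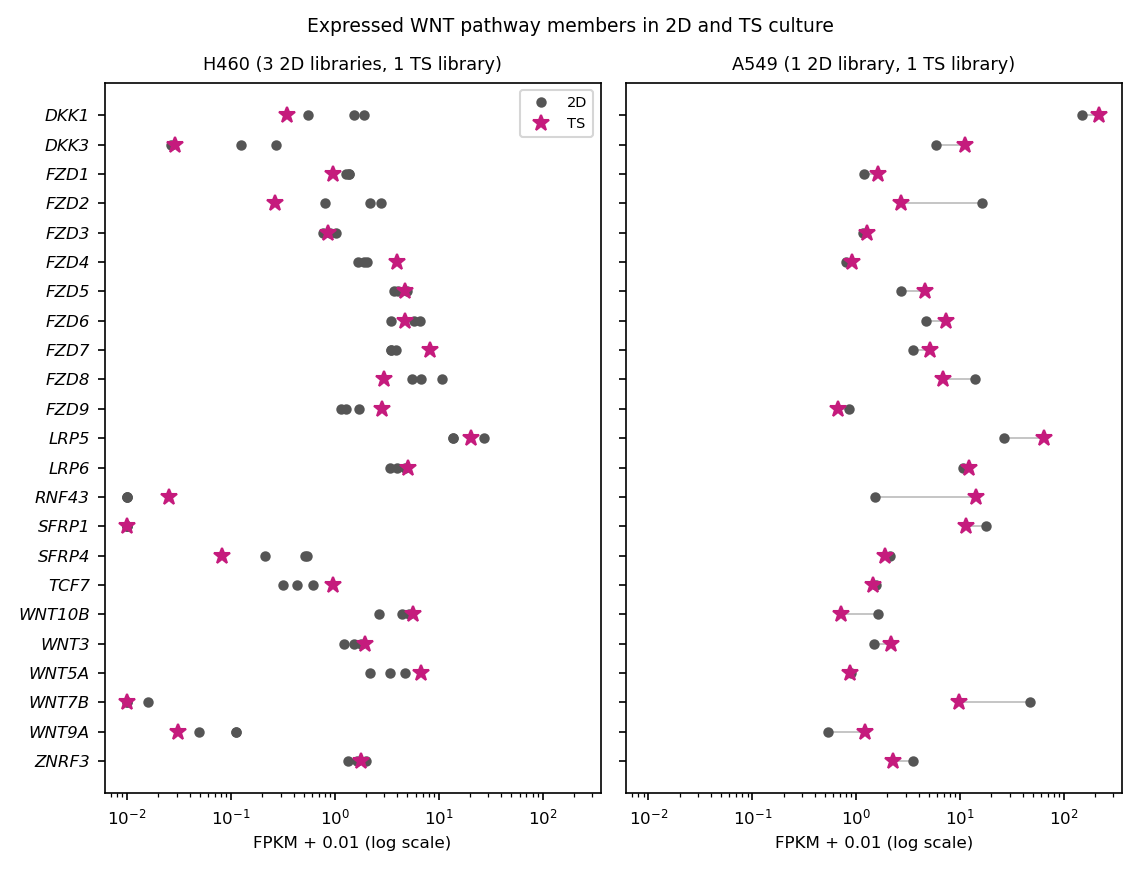
FPKM + 0.01 (x axis, log scale) of the 23 members that reached 1 FPKM in 2 or more libraries, in 2D (circles) and TS (stars) culture, for H460 (left, 3 2D libraries) and A549 cells (right, 1 and 1). FZD2 and FZD8 are lower in TS culture in both panels, at 0.257 and 2.71 FPKM for FZD2 and 2.96 and 6.85 FPKM for FZD8, and RNF43 reaches 14.3 FPKM only in A549 TS cells.

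Whether the TS response differed between the lines was examined with an interaction term, added after seeing the data. By edgeR none of 31 members was called, against 0.436% of all 19941 genes, and DESeq2 called none. At an unadjusted p under 0.05 there were 3, DKK1, WNT9A and WNT10B, against 8.16% of all genes. In H460 cells DKK1 was at 0.337 FPKM in TS cells, below the parental 0.542 to 1.88 FPKM, and in A549 cells it was at 220 FPKM in TS against 148 FPKM in 2D culture. WNT9A was at 0.0209 against 0.0396 to 0.103 FPKM in H460 and at 1.20 against 0.530 FPKM in A549 cells. WNT10B was at 5.65 against 2.66 to 5.22 FPKM in H460 and at 0.697 against 1.61 FPKM in A549 cells. These single TS libraries lay in opposite directions in the 2 lines, for WNT10B only just above the highest parental library. The 3 members were picked by the p-value of that difference, so their directions are no support for it. Their number was near the share of all genes, and the difference did not pass the adjusted threshold.

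Among the other receptors, FZD4 was at 3.94 and FZD9 at 2.84 FPKM in H460 TS cells, both above all parental libraries, and at 0.893 and 0.665 FPKM in A549 TS against 0.792 and 0.833 FPKM in A549 2D cells. FZD5 was at 4.75 FPKM in H460 TS and 4.60 FPKM in A549 TS cells, against 2.71 FPKM in A549 2D cells. FZD1, FZD3 and FZD6 were at 0.945, 0.841 and 4.69 FPKM in H460 TS cells and at 1.62, 1.25 and 7.28 FPKM in A549 TS cells, against 1.19, 1.15 and 4.67 FPKM in A549 2D cells. Of these receptors, FZD4 was above every 2D library of the same line in both lines, though by little in A549 cells. The others showed no shared direction.

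WNT5A was at 6.68 FPKM in H460 TS cells, above all parental libraries, and at 0.860 and 0.875 FPKM in A549 TS and 2D cells. WNT3 was at 1.93 FPKM in H460 TS, 2.14 in A549 TS and 1.47 in A549 2D cells. LRP5 and LRP6 were at 20.6 and 5.10 FPKM in H460 TS cells. In A549 cells LRP6 differed little between cultures, with 12.1 FPKM in TS and 10.8 FPKM in 2D cells.

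DKK3 was at 0.0186 FPKM in H460 TS cells, near the lowest parental library, and at 11.2 against 5.8 FPKM in A549 TS and 2D cells. SFRP4 was at 0.0718 FPKM in H460 TS cells, below all parental libraries, and at 1.86 and 2.09 FPKM in A549 TS and 2D cells. TCF7 was at 0.955 FPKM in H460 TS cells, above the parental 0.310 to 0.601 FPKM, and at 1.44 and 1.54 FPKM in A549 TS and 2D cells. ZNRF3 was at 1.78 FPKM in H460 TS, 2.23 FPKM in A549 TS and 3.53 FPKM in A549 2D cells. WNT4 reached 0.973 FPKM in A549 TS against 0.0990 FPKM in A549 2D cells, and 0.0284 FPKM in H460 TS cells, where it had 11 counts.

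The 2 lines also differed from each other in 2D culture. In A549 2D cells 9 members were more than 2-fold apart from the parental H460 mean, while 9.57% of all genes were. DKK1, DKK3, SFRP1, SFRP4, FZD2, LRP6, RNF43 and WNT7B were higher, and WNT5A was lower, at 0.875 FPKM against 3.42 ± 1.26 (SD, n = 3). SFRP1 was at 17.7 and 11.3 FPKM in A549 2D and TS cells and at 0 in parental and TS H460 cells. There is 1 library of A549 2D cells, so the difference has no replicate check.

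The remaining 18 members were low. Their highest FPKM was 2.53 for AXIN2, 0.880 for WNT5B, 0.709 for SFRP5, 0.213 for WNT11, 0.147 for WNT10A and 0.102 for WNT7A. It was 0.0706 for WIF1, 0.0491 for DKK4, 0.0411 for WNT8B, 0.0275 for WNT3A, 0.0274 for FZD10 and 0.0231 for WNT9B. For WNT1, SFRP2, WNT2, WNT16, DKK2 and WNT8A it was 0.0196, 0.0119, 0.00985, 0.00952, 0.00613 and 0.00432. Except for AXIN2 and the counts of WNT7A given further below, no direction is given for them.

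The pathway around these members was covered by 8 lists with 75 genes. In drug-resistant cells 62 were tested, of which 15 rose and 3 fell, or 29% called against 33.8% of all genes. In PR cells 63 were tested, of which 16 rose and 2 fell, or 28.6% against 28.1% of all genes. Both shares were near those of all genes. A listed gene that passed the filter on low counts only through drug-resistant cells had to differ, as with the members. Genes that did so are not marked here. The counts and medians, here and for each list below, thus describe the lists and are no evidence about them. In TS cells edgeR called none of 65, and DESeq2 called 4, TLE4, PTK7 and TRABD2A lower and BMP4 higher, which are named after their values were seen.

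R-spondins are secreted proteins that raise WNT signalling by removing RNF43 and ZNRF3. Of the R-spondins and their receptors 3 of 5 tested genes were higher, namely 2 R-spondins and 1 receptor, while 18.5% of all genes tested were higher. RSPO3 was at 8.22, 5.81 and 5.49 FPKM in parental and 17.6, 21.3, 24.7 and 15.6 FPKM in CR, PR replicate 1, PR replicate 2 and DR cells (log2 1.48 ± 0.21, edgeR adjusted p = 0.000781). RSPO2 was at 0.141 to 0.293 FPKM in parental and 0.886 to 1.46 FPKM in drug-resistant cells (log2 2.47 ± 0.37, edgeR adjusted p = 0.000996). The R-spondin receptor LGR6 was called at no more than 0.225 FPKM in H460 cells (edgeR adjusted p = 0.00916). All 3 were called in PR cells too, which were set against the same parental libraries. In drug-resistant cells the median of the 5 tested genes was 1.48 against 0.06 for all genes.

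Of 2 secretion genes, PORCN, the acyltransferase that lipidates WNT proteins, rose from 2.32 to 4.53 FPKM in parental to 6.09 to 7.92 FPKM in drug-resistant cells (log2 0.94 ± 0.26, edgeR adjusted p = 0.0196). It was not called without parental replicate 1 or without parental replicate 2, nor in PR cells. Of 8 other antagonists tested, DRAXIN rose and KREMEN2 fell. DRAXIN, an axon guidance protein that binds LRP6, was at 0 to 0.0335 FPKM in parental and 0.0787, 1.16, 1.78 and 0.378 FPKM in CR, PR replicate 1, PR replicate 2 and DR cells (edgeR adjusted p = 0.00730). KREMEN2, a DKK1 co-receptor, was at 1.04 to 2.22 FPKM in parental and 0.253 to 0.967 FPKM in drug-resistant cells (log2 -1.62 ± 0.44, edgeR adjusted p = 0.0179), and was not called without parental replicate 2. In PR cells FRZB rose (edgeR adjusted p = 0.0269) at no more than 0.521 FPKM.

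Of 5 other WNT receptors tested, ROR1, a WNT5A receptor, rose from 0.382 to 0.641 FPKM to 0.866 to 1.94 FPKM (log2 1.48 ± 0.33, edgeR adjusted p = 0.00696). PTK7, a polarity co-receptor, fell from 1.06 to 1.59 FPKM to 0.327 to 0.650 FPKM (log2 -1.50 ± 0.31, edgeR adjusted p = 0.00536). None of the 15 Dishevelled and destruction complex genes was called in drug-resistant cells, with a median of -0.01, and in PR cells APC2 rose (edgeR adjusted p = 0.0207) at 0.154 FPKM or less.

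Of 11 nuclear factors 3 rose, the co-activator BCL9L (log2 1.33 ± 0.40, edgeR adjusted p = 0.0278) and the TCF co-repressors TLE4 (1.29 ± 0.24, 0.00281) and TLE1 (1.05 ± 0.26, 0.0124). TLE4 went from 1.07 to 1.47 FPKM in parental to 2.20 to 4.48 FPKM in drug-resistant cells. BCL9L was not called without parental replicate 1 or without either PR library, nor TLE1 without parental replicate 2. Of 8 planar cell polarity genes tested, CELSR3, DAAM1 and VANGL2 rose, with edgeR adjusted p-values of 0.0234, 0.0130 and 0.00637. VANGL2 did not exceed 0.125 FPKM in H460 cells, while DAAM1 rose from 0.857 to 1.23 FPKM to 1.63 to 3.27 FPKM (log2 1.03 ± 0.26). CELSR3 was not called without parental replicate 1 or 2 or without either PR library, nor DAAM1 without parental replicate 2. In PR cells the same 3 were called, and PRICKLE2 (edgeR adjusted p = 0.0397) at 0.0224 FPKM or less.

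Of 8 other WNT target genes tested, 3 rose and 1 fell. CCND1, the G1 cyclin, rose from 17.1 to 33.0 FPKM to 72.0 to 106 FPKM (log2 1.92 ± 0.30, edgeR adjusted p = 0.00131). The adhesion receptor CD44 rose from 36.8 to 39.9 FPKM to 109 to 147 FPKM (log2 1.69 ± 0.19, edgeR adjusted p = 0.000273). MYC fell from 48.4 to 79.5 FPKM to 33.6 to 42.7 FPKM (log2 -0.95 ± 0.23, edgeR adjusted p = 0.00972). TNFRSF19 rose from 10.0 to 14.0 FPKM to 16.6 to 24.8 FPKM (log2 0.59 ± 0.20, edgeR adjusted p = 0.0442), a call held in 6 of 15 alternatives and lost without any 1 library other than PR replicate 2. These genes answer to many pathways besides WNT, and the cause of their changes was not tested. AXIN2 was at 0.0540 to 0.135 FPKM in drug-resistant cells against 0.0572 to 0.170 FPKM in parental cells. With 22 to 57 counts per library it passed the filter on low counts. It was not called in drug-resistant cells, nor in any of 14 alternatives. A small change could be missed at such counts.

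**Figure D5:**
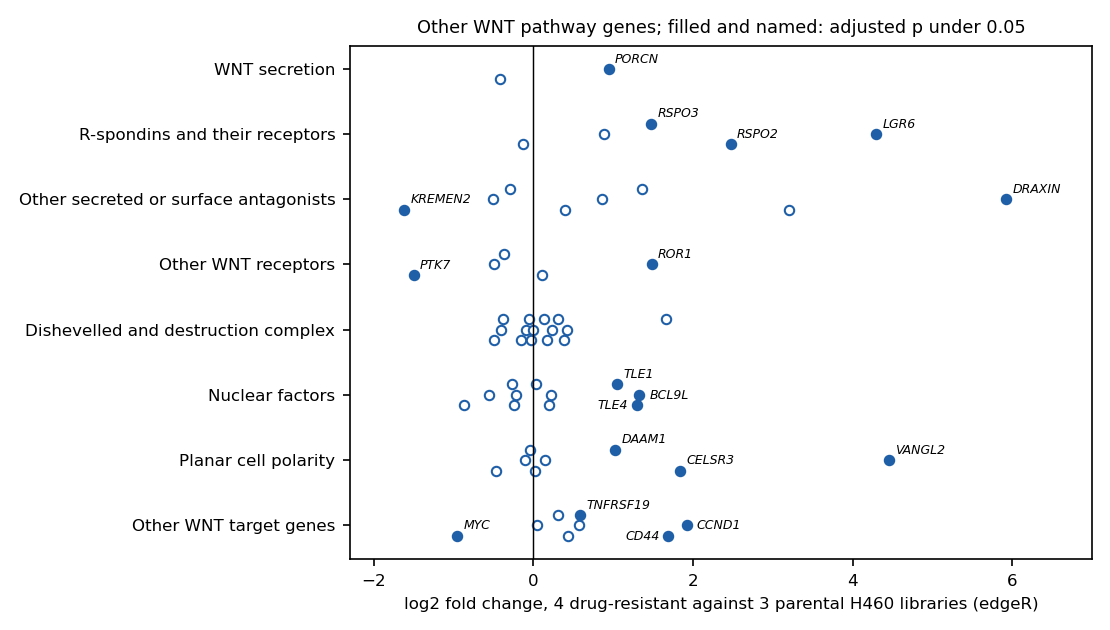
Log2 fold change of 4 drug-resistant against 3 parental H460 libraries (x axis, edgeR estimates, 1 point per gene) for the 62 tested genes of 8 lists of other WNT pathway genes (y axis); filled and named points have an adjusted p under 0.05. The 15 points of the Dishevelled and destruction complex list are all open, while 3 of 5 in the list of R-spondins and their receptors are filled. Filled points make up 29% of the 62 genes, against 33.8% called over all genes tested.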

How the data were processed

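RNA sequencing values of 10 libraries were used. H460 cells gave 3 parental, 4 drug-resistant (1 CR, 2 PR, 1 DR) and 1 TS library, and A549 cells gave 1 library in 2D and 1 in TS culture. The labels call the TS libraries CTC or sphere culture, and they were taken as TS cells. A549 cells made resistant to cisplatin are not analysed here. The members, lists and tests were chosen with earlier results of these data known.

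Each library has 3 deposited values for each of 46427 genes. The read counts were deposited as whole numbers without normalization. The FPKM values were deposited as scaled by the authors for the length of the transcript and for sequencing depth. The TPM values, which the authors scaled in addition to a common total, were not used here. The submitters' processing notes name bcl2fastq 1.8.4, Trimmomatic, HISAT2 2.1.0, StringTie 2.1.3b and the build GRCh38. Which of these made the counts, how reads shared between genes were treated and whether strand was used are not given in the sources used here. Reads of members that overlap a gene on the opposite strand therefore cannot be told apart from that gene's. In all 10 libraries more genes had a count of 2 than of 1, so a count may not be 1 independent read, and intervals from counts cover counting error only. Library totals were 59499787 to 89541774 counts.

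Counts were tested with edgeR 4.0.16 in R 4.3.3 (TMM scaling, filterByExpr, glmQLFit and glmQLFTest) over all genes, with p-values adjusted by Benjamini-Hochberg and a threshold of 0.05. In 1 fit the 4 drug-resistant libraries were set against the 3 parental ones, in another the 2 PR libraries were, and in the last TS culture was set against 2D culture with the cell line as a term. The first fit takes the drugs as samples of 1 group, so its spread holds differences between drugs. Single libraries were compared on log2(FPKM + 1) with the fold-change cut-off of 2 named in the study's methods, without a test. Alternatives were DESeq2 1.42.0, limma 3.58.1 on log2(FPKM + 1), RLE and upper-quartile scaling, no filter, protein-coding genes only, each library left out in turn, each drug as its own group, the form of the library name as a covariate and a replicate block. The interaction of cell line and TS culture and the values within each form of the library name were added after seeing the data. The drug-resistant, PR and TS fits were tested on simulated counts in which 200 genes were changed 4-fold. They recovered 93%, 88.5% and 65.5% of these genes, and 6.06%, 7.33% and 11.5% of their calls were false. The TS fit can thus miss changes of this size.

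Members that reached 1 FPKM in at least 2 libraries, and members called in a fit, were named with their values, with fold changes and p-values only for called members. Other members were named with their highest FPKM. From each list, up to 4 called genes per fit with the largest change were named. Gene positions and overlaps were taken from GENCODE 29 on GRCh38, and promoters from RefSeq on GRCh38.p14, where no entry was found for 15 members. Python 3.11.15 with numpy 2.4.6, pandas 2.3.3 and matplotlib 3.10.9 served for the remaining steps.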

Additional observations from a re-analysis of the deposited data

Results flagged for a closer look

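The WNT3 level of PR replicate 2, at 1.66 FPKM, stood apart from those of the other 3 drug-resistant libraries, which lay between 0.837 and 0.977 FPKM and close together. The gap was judged by Dixon's ratio at the 95% level for each of the 27 members named with values, in the group of 4 drug-resistant libraries. Chance flags about 1 in 20 groups, and this was the only one of 27. With this library WNT3 overlapped the parental range of 1.21 to 1.77 FPKM, and without it the drug-resistant range lay below it. The gene was not called with or without it.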

How the results depend on the processing

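Of the 16 members called in drug-resistant cells, 207 of 229 values under the alternatives kept the direction and the call, 22 kept the direction and lost the call, and 0 reversed. For the 12 called in PR cells the numbers were 134, 16 and 0 of 150. Both sets hold WNT4, WNT6, WNT7B and LEF1, which had to differ wherever the filter on low counts was used. Part of these numbers was thus fixed in advance. With limma, which tests fewer genes because low ones are filtered out, 7 members were called in drug-resistant and 7 in PR cells, and 3026 genes in all in PR cells. With upper-quartile scaling, 4210 genes were higher and 2032 lower in drug-resistant cells, against 3397 and 2823, and the median of all genes moved from 0.06 to 0.23. In PR cells the split became 4252 and 1347, against 3391 and 2064, with a median of 0.30. The members called were then 10 higher and 5 lower in drug-resistant and 10 and 3 in PR cells, and the list genes in PR cells 18 and 0, against 16 and 2.

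With single libraries left out, between 12 and 15 members were called in drug-resistant cells. In PR cells the members called ranged from 2, without PR replicate 2, to 14, and all genes called from 950 to 6661, with 2068 without PR replicate 1 and 3570 without parental replicate 2. For TS cells all genes called ranged from 6, without parental replicate 2, to 35, with 10 without parental replicate 3 and 0 members in each case. For the difference between the lines they ranged from 116 to 656, with 143 without parental replicate 2, and members from 0 to 1 (DKK3, without parental replicate 1). DESeq2 called 4 members, 4 list genes and 537 genes in TS cells, and 539 genes for the difference between the lines. The cause was not tested.

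PR and parental replicates 1 and 2 share numbers only, and the correlation of their deviations was 0.0843 over 19179 genes and 2 pairs. With the replicate block 14 members and 6775 genes were called, against 12 and 6661 for the same 4 libraries without it, and the block added WNT5A and FZD3.

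The numbers of members more than 2-fold apart depended on the low-value setting. With a pseudocount of 0.1 they were 9 in CR, 13 in PR, 10 in DR, 9 in H460 TS, 8 in A549 TS and 17 in A549 2D cells, beside 15.2%, 19.1%, 13.1%, 7.15%, 14% and 21.9% of all genes. With log2 CPM they were 16, 21, 24, 17, 13 and 22, beside 28.3%, 33.6%, 33.6%, 18.7%, 28% and 35.8%. In H460 TS cells they were 4 against parental replicate 2 and 1 against parental replicate 3 alone (2.80% and 3.52% of all genes). WNT7A was called in drug-resistant cells only without the filter on low counts. It had 0 counts in all parental libraries and in CR cells, 10 and 28 in PR replicates 1 and 2 and 10 in DR cells. The CR library was thus like the parental ones, and no fold change is given. Members with few counts have wide counting intervals.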
